A study of Mus musculus with 6 samples.

Results

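AP-1 (activator protein 1) is a family of dimeric transcription factors built from Jun and Fos proteins, and its genes were followed here together with 3 related stress-responsive genes, Atf3, Egr1 and Nr4a1, in mouse kidney after ischemia. The genes were taken by name from a set of 10: Fos, Fosb, Fosl1, Fosl2, Jun, Junb, Jund, Atf3, Egr1 and Nr4a1. The table of 13026 genes gave values for 9 of them, and all 9 passed the filter on low values, which kept the 12836 genes averaging 0.5 FPKM or more over the 6 libraries (FPKM is a read level scaled for transcript length and library size). The level of Fosb was not analysed here.

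The data come from whole kidneys of adult male mice on a C57BL/6 J background, 3 wild type (LIGHT+/+) and 3 lacking LIGHT (LIGHT-/-), the TNF-type cytokine encoded by Tnfsf14. In every mouse the blood flow to both kidneys was stopped for 32 min and restored for 24 h, and no unoperated kidneys enter the comparison. The labels do not say how the LIGHT deletion was made, whether wild type mice were littermates, or that each library of a group is a separate mouse, and p-values therefore rest on the spread between libraries, which may be technical. Tnfsf14 was not analysed here, which leaves the genotype labels without a check on the targeted gene.

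Most of these genes belong to the immediate early class: their promoters are bound in advance by factors that kinases can switch on, so that transcription starts within minutes of a stress and needs no new protein. Jun proteins can pair with each other or with Fos proteins, whereas Fos proteins need a Jun partner, and the choice of partner sets the strength of the dimer. In kidney, AP-1 genes, Egr1 and Atf3 are known to respond to ischemia and reperfusion in tubular cells.

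Knockout library 3 was unlike the other 5. Across genes it correlated with them at a Pearson r of 0.934 to 0.956, whereas they correlated with one another at 0.976 to 0.989, and each difference of the 9 genes and each list count is therefore given with and without it. The 5 proximal tubule markers (Lrp2, Slc34a1, Slc5a2, Slc22a6 and Aqp1) were all present and summed to 572 to 682 FPKM in wild type libraries, to 814 and 920 in knockout libraries 1 and 2, and to 1585 in knockout library 3. The 5 collecting duct markers gave sums of 89.1 to 155 FPKM across wild type libraries, 83.0 and 134 for knockout libraries 1 and 2, and 424 for knockout library 3, while the 6 neutrophil markers summed to 63.1 to 95.5, 45.1 and 65.5, and 20.6. The 4 thick limb and distal tubule markers summed to 545 to 850 FPKM, to 451 and 562, and to 881. The 3 adipocyte markers summed to between 12.1 and 20.8 FPKM in the other 5 libraries and to 52.4 in knockout library 3. Other marker sums separated the genotypes without overlap, as those of the proximal tubule did. B and plasma cell markers (2 of 4, Jchain and Mzb1) summed to 0.856 to 1.79 FPKM in wild type and to 8.35 to 9.18 in the 3 knockout libraries, and T and NK cell markers (2 of 4, Cd3g and Nkg7) to 0.0840 to 0.213 and 0.501 to 1.89. Every row held a higher group mean of at least 0.50043 FPKM, so Cd3g and Nkg7 entered only through the knockout. Their direction was thus fixed in advance. The B and plasma cell markers, low in wild type, may share this limit. The 4 podocyte markers summed to 87.1 to 103 and 77.6 to 80.4 FPKM, and the 5 stromal and smooth muscle markers to 189 to 419 and 137 to 183. No marker with values was at 0 in all 6 libraries, an outcome that the same limit on rows fixed in advance. FPKM of a whole organ cannot tell fewer cells of a type from less RNA per cell, and the part of cell makeup in the values below was not tested.

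The 9 genes differed widely in level in wild type kidneys. Jund, the Jun protein that is usually expressed without a stimulus, was the most abundant at 94.9 ± 12.4 FPKM (SD, n = 3). Jun, the founding partner of the family, followed at 38.7 ± 5.88 and Junb, a Jun protein with weaker activating power, at 33.6 ± 6.90, and the ranges of these neighbours overlapped, although Jun was above Junb in each of the 3 libraries. A middle group held Fosl1 at 11.3 ± 3.35, Egr1 at 10.3 ± 2.38, Fosl2 at 9.83 ± 1.78 and Atf3 at 8.03 ± 1.54 FPKM, again with overlapping spreads. Nr4a1 at 4.57 ± 0.885 and Fos at 3.17 ± 0.533 FPKM were the least abundant, with Nr4a1 above Fos in each of the 3 libraries. Summed, the 3 Jun genes reached 167 ± 24.2 FPKM in wild type and the 3 Fos genes measured reached 24.3 ± 5.65, a ratio of 7.01 ± 1.14. That ratio was 9.36, 6.47 and 11.0 in knockout libraries 1, 2 and 3, so the groups overlapped.

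**Figure D1:**
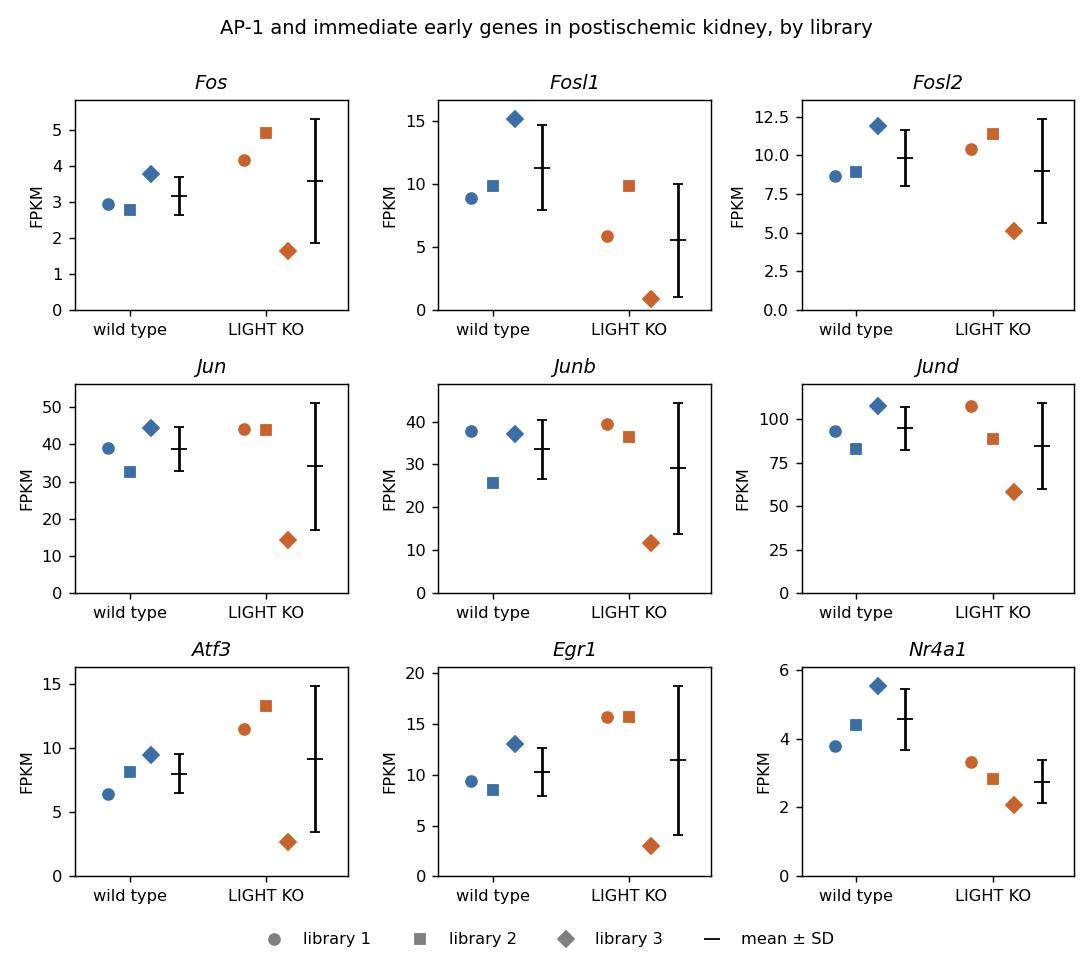
FPKM of the 9 genes in each of the 6 libraries (vertical axes from 0, a scale for each gene), with wild type in blue, LIGHT knockout in orange, and the mean ± SD of the 3 libraries in black. Knockout library 3, the orange diamond, is the lowest of the 6 in every panel, and Nr4a1 is the 1 gene whose groups do not overlap.

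No gene of the set passed the test between genotypes with all 6 libraries. The comparison asked which genes differ between LIGHT knockout and wild type kidneys after ischemia. Without unoperated kidneys it cannot measure the response to ischemia or set it apart from a genotype difference present before. In limma, with Benjamini-Hochberg adjustment over 12836 genes, 0 of 9 genes had an adjusted p under 0.05, where 0.117% of all genes did, and adjusted p ran from 0.592 to 0.985. At an unadjusted p under 0.05 there was 1 gene of the 9, Nr4a1, against 8.08% of all genes. By the sign of the difference, 8 were lower and 1 higher in the knockout (47.9% of all genes were higher). The median of the log2 fold changes was -0.20, against -0.01 over all genes. Without knockout library 3 the signs were 2 lower and 7 higher (46.4% of all genes were higher), with a median of 0.19 against -0.01 over all genes, and again 0 of 9 passed in limma, where 0.0857% of all genes did. In that comparison 4 of the 9 had an unadjusted p under 0.05, against 7.16% of all genes.

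Among the Fos genes, Fos, whose product is the classic short-lived partner of Jun, stood at 2.94, 2.79 and 3.78 FPKM in wild type libraries 1 to 3 and at 4.18, 4.91 and 1.63 in knockout libraries 1 to 3. The first 2 knockout libraries were thus above every wild type library and the third below every one. The log2 fold change was 0.06 ± 0.30 (SE), with a 95% interval from -0.67 to 0.78 (limma adjusted p = 0.959). Without knockout library 3 it was 0.42 ± 0.14, with an interval from 0.07 to 0.77 before adjustment (limma adjusted p = 0.674).

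Fosl1, which encodes FRA1, a Fos protein without a strong activation domain that is associated with injury, migration and invasion of epithelial cells, stood at 8.89, 9.84 and 15.1 FPKM in wild type and at 5.85, 9.83 and 0.899 in the knockout. Knockout library 2 lay within the wild type range, library 1 below it and library 3 far below it. Its log2 fold change was -1.21 ± 0.61 (SE), with a 95% interval from -2.66 to 0.25 (limma adjusted p = 0.598), and -0.48 ± 0.27 without knockout library 3 (limma adjusted p = 0.771). Fosl2, which encodes FRA2, stood at 8.68, 8.91 and 11.9 FPKM in wild type and at 10.4, 11.4 and 5.12 in the knockout. Its first 2 knockout libraries lay inside the wild type range, and its log2 fold change was -0.17 ± 0.28 with all libraries (95% interval -0.84 to 0.49) and 0.15 ± 0.15 without knockout library 3.

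The makeup of the Fos family differed between genotypes without overlap. Fos made up 14.3, 12.9 and 12.3% of the summed FPKM of Fos, Fosl1 and Fosl2 in wild type libraries and 20.4, 18.8 and 21.3% in knockout libraries, or 13.2 ± 1.05 and 20.2 ± 1.27% (SD, n = 3 each). Knockout library 3 had a share of 21.3% although Fos itself was lowest there at 1.63 FPKM, because Fosl1 fell further, to 0.899. Fos over Fosl2 overlapped between genotypes, at 0.338, 0.313 and 0.318 in wild type libraries and 0.401, 0.433 and 0.319 in knockout libraries. How often such shares separate the genotypes in other sets of genes was not computed. Fosl1 made up 43.3, 45.7 and 49.1% in wild type and 28.6, 37.7 and 11.8% in the knockout, where library 3 was again far below. Fosl2 made up 42.3, 41.4 and 38.6% and then 51.0, 43.5 and 66.9%. The 3 shares sum to 100% and are therefore not separate results, and Fosb is outside them. They were examined after the values had been seen, and with 3 libraries a group an exact two-sided permutation test cannot go below p = 0.1.

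**Figure D2:**
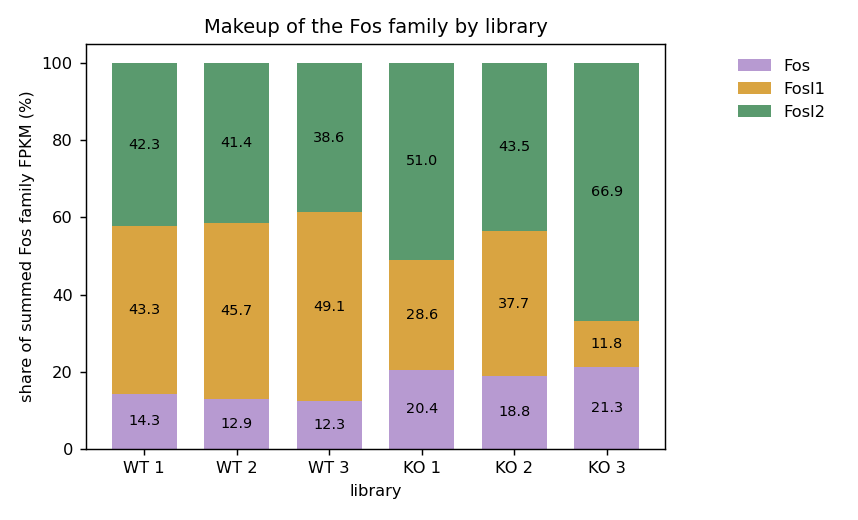
Share of Fos, Fosl1 and Fosl2 in their summed FPKM (vertical axis, %) in each of the 6 libraries (horizontal axis). The Fos share lies between 12.3 and 14.3% in wild type (WT) and between 18.8 and 21.3% in LIGHT knockout (KO), and the Fosl1 share is smallest in KO 3 at 11.8%.

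Jun and Junb followed one another, and Jund varied less. Jun stood at 39.0, 32.7 and 44.4 FPKM in wild type and at 44.1, 43.9 and 14.3 in the knockout, and Junb at 37.9, 25.6 and 37.2 and then 39.5, 36.4 and 11.6. For both, knockout libraries 1 and 2 lay near or just above the top of the wild type range and knockout library 3 lay far below it. The log2 fold changes were -0.33 ± 0.42 (SE; 95% interval -1.33 to 0.68) for Jun and -0.35 ± 0.45 (-1.42 to 0.72) for Junb, and 0.19 ± 0.13 and 0.19 ± 0.18 without knockout library 3. Jund stood at 93.6, 83.2 and 108 FPKM in wild type and at 108, 88.6 and 58.3 in the knockout, the smallest drop of the Jun genes in knockout library 3. Its log2 fold change was -0.20 ± 0.23, and 0.05 ± 0.14 without that library. Accordingly Jund made up 69.3% of the Jun family in knockout library 3 and 52.5 to 58.8% in the other 5 libraries.

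Atf3 encodes a stress-induced factor of the related ATF group that pairs with Jun proteins and often represses, and Egr1 encodes a zinc finger activator that binds GC-rich sites. Atf3 stood at 6.44, 8.12 and 9.52 FPKM in wild type and at 11.6, 13.3 and 2.66 in the knockout. Egr1 stood at 9.42, 8.47 and 13.0 FPKM in wild type and at 15.7, 15.6 and 2.95 in the knockout. As with Fos, knockout libraries 1 and 2 were above every wild type library and library 3 below every one. With all libraries the log2 fold change was -0.04 ± 0.50 (SE; 95% interval -1.24 to 1.17, limma adjusted p = 0.985) for Atf3 and -0.11 ± 0.56 (-1.44 to 1.22, limma adjusted p = 0.956) for Egr1. Without knockout library 3 it was 0.59 ± 0.16 (0.19 to 0.98, limma adjusted p = 0.555) and 0.58 ± 0.17 (0.16 to 1.00, limma adjusted p = 0.594), or 1.55-fold and 1.52-fold by mean FPKM. In all, 3 of 9 genes (Fos, Atf3 and Egr1) were higher without overlap in knockout libraries 1 and 2, where 11.2% of all genes were.

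Nr4a1, which encodes the orphan nuclear receptor NUR77, was lower in those 2 libraries, where Fos, Atf3 and Egr1 were higher. It stood at 3.79, 4.38 and 5.53 FPKM in wild type and at 3.32, 2.84 and 2.08 in the knockout. Every knockout library was below every wild type library, the 1 case among 9 of groups that do not overlap, where 8.80% of all genes were lower and 7.76% higher in this way. The log2 fold change was -0.57 ± 0.17 (SE), with a 95% interval from -0.98 to -0.16 before adjustment, and did not pass (limma adjusted p = 0.592). It was -0.44 ± 0.16 without knockout library 3 (limma adjusted p = 0.678). Fos over Nr4a1 was 0.775, 0.637 and 0.683 in wild type libraries and 1.26, 1.73 and 0.784 in knockout libraries, so the order of these 2 transcripts was turned in knockout libraries 1 and 2, and library 3 lay only just outside the wild type range.

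**Figure D3:**
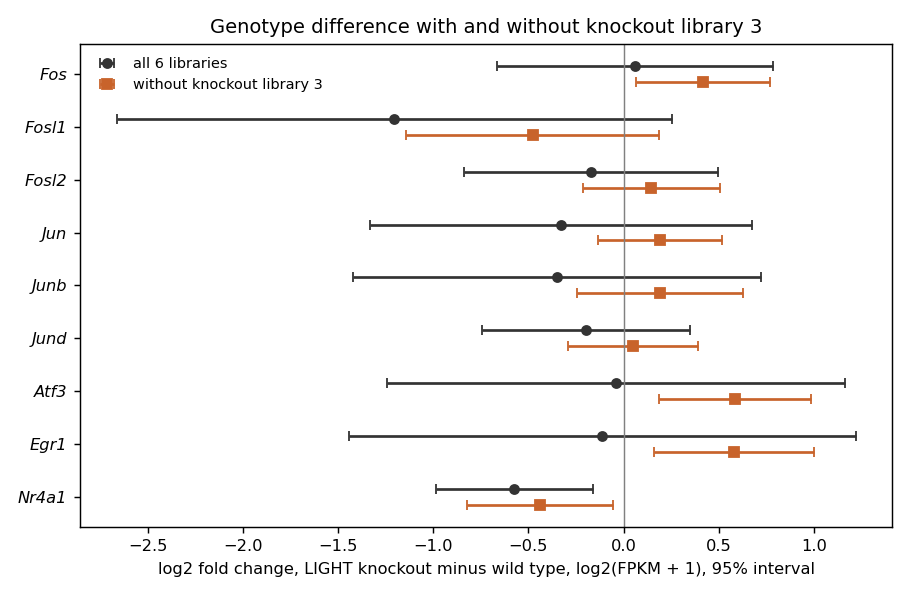
Log2 fold change of each gene, LIGHT knockout minus wild type, on the log2(FPKM + 1) scale (horizontal axis), with its 95% interval from limma before adjustment, for all 6 libraries (black circles) and without knockout library 3 (orange squares). Nr4a1 lies below 0 in both, at -0.57 and -0.44, while Atf3 moves from -0.04 to 0.59 and Egr1 from -0.11 to 0.58.

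Knockout library 3 was the lowest of the 6 libraries for 9 of 9 genes, against 30.3% of all genes, and it was the highest for 29.8% of all genes and for none of the 9. Relative to the median of the other 5 libraries, Fosl1 was at 9.15% of its level there, Egr1 at 22.7%, Atf3 at 28.0%, Junb at 31.2%, Jun at 32.5%, Fos at 43.2%, Fosl2 at 49.1%, Nr4a1 at 54.9% and Jund at 62.3%. On the log2(FPKM + 1) scale the median shift of the 9 was -1.52, against 0.01 over all genes, whose 5th percentile was -0.68. Havcr1, the gene of the injury marker KIM-1, was at 895, 770 and 833 FPKM in wild type and at 596, 415 and 143 in the knockout, and was likewise lowest in library 3. Of 13 tubular injury genes, 9 were lowest in that library. The part of the degree of injury, or of tissue makeup, in the low AP-1 levels of library 3 was not tested.

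Wild type libraries varied too. Wild type library 3 was the highest of the 3 for 8 of 9 genes (all but Junb), where 45.6% of all genes were highest in it. The coefficient of variation among wild type libraries had a median of 19.2% over the 9 genes and 11.0% over all genes, and ran from 13.1% for Jund to 29.7% for Fosl1. The 5 stromal and smooth muscle markers summed to 419 FPKM in wild type library 3 and to 189 and 280 in the other two, a difference whose part in these levels was not tested.

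The genes with the most similar profile over the 6 libraries were found by the root mean square difference from the mean profile of the 9, each gene being centred on its own mean of log2(FPKM + 1). Of 11415 genes compared, the closest was Ier2, itself an immediate early gene, at 0.0998, followed by Smim3 at 0.101, Rras2, a RAS-like GTPase, at 0.111, Tinagl1, a matrix protein, at 0.115, and Trib1, a pseudokinase, at 0.120, while the median gene was at 0.518. Ier2 stood at 17.7, 17.6 and 21.7 FPKM in wild type and at 20.3, 18.7 and 8.20 in the knockout. These similar genes share with the 9 the low values in knockout library 3, which weigh most in the measure. Within the set, Jun and Junb were closest to each other at 0.0977, Fos and Fosl2 at 0.130 and Atf3 and Egr1 at 0.164. Fosl1 was the farthest from its nearest member, Jun, at 0.545.

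**Figure D4:**
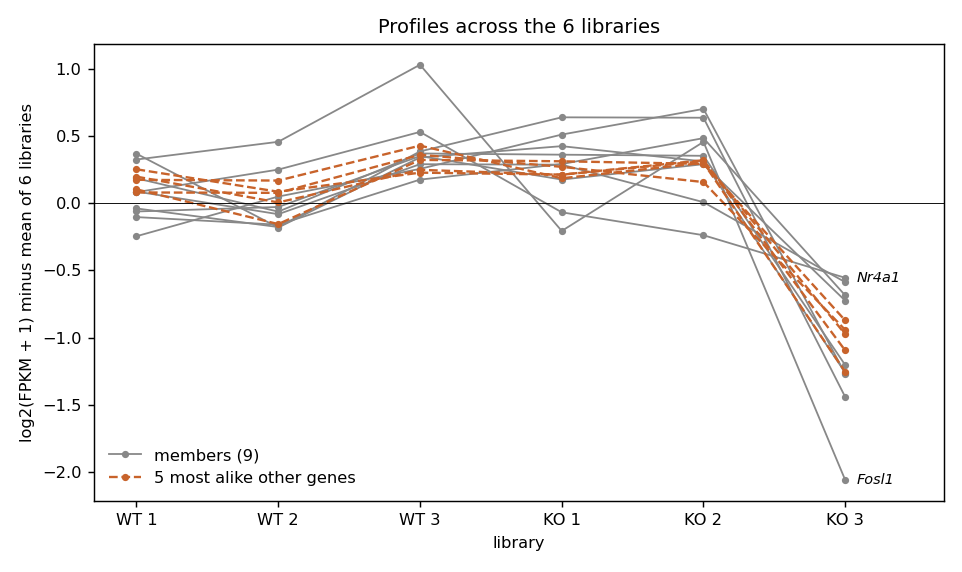
Log2(FPKM + 1) minus the gene's mean over the 6 libraries (vertical axis) in each library (horizontal axis; lines join the values of 1 gene and imply no order), for the 9 genes in grey and the 5 most similar other genes in dashed orange. All fall below 0 in KO 3, from Fosl1 as the lowest to Nr4a1 as the highest of the 9.

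RefSeq promoter sequences (build GRCm38.p6) were matched for 8 of the 10 genes, of which 4 are shown because they stand for the patterns above: Fos and Atf3, higher than wild type in knockout libraries 1 and 2, Jun, inside the wild type range there, and Nr4a1, lower there. Each run is the 250 bases before the RefSeq start, 5′ to 3′ on the gene's strand, at chr12:85473640-85473889 (+ strand), chr4:95052223-95052472 (- strand), chr1:191183334-191183583 (- strand) and chr15:101266596-101266845 (+ strand). Capitals mark matches on either strand to TGACG (the core of the cAMP response element bound by CREB and ATF factors), TGACATCA (an AP-1 and ATF type site of the Jun promoter), TATAAA or GCGNGGGCG (the EGR site).
Fos: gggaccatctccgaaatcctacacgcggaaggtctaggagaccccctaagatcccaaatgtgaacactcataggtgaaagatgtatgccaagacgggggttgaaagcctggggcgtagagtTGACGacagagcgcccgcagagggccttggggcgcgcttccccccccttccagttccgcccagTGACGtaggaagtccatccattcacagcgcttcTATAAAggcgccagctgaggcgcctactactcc
Jun: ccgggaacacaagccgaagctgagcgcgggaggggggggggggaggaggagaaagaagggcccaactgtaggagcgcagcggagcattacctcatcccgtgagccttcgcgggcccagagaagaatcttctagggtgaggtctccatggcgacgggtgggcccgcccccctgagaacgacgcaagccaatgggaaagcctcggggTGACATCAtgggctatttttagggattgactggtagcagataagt
Atf3: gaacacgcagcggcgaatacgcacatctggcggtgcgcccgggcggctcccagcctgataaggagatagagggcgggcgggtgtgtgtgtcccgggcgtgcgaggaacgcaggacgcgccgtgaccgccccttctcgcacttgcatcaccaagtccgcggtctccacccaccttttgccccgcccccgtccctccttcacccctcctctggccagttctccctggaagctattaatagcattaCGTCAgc
Nr4a1: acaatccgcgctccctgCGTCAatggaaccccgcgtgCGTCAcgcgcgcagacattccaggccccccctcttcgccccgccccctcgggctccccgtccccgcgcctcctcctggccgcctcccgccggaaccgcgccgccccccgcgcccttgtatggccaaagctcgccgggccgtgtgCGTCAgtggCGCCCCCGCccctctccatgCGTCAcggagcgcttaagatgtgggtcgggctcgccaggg
Fos held TGACG at -129 and -66 from the start and TATAAA at -33. Jun held TGACATCA at -45, a sequence present in 2.93% of 32851 promoters of this length. In Atf3, TGACG was on the opposite strand at -7, and in Nr4a1 on the opposite strand at -233, -213, -69 and -40, beside a GCGNGGGCG match at -60. In all, TGACG occurred in 5 of the 8 promoters (Fos, Fosb, Junb, Atf3 and Nr4a1), against 17.8% of all, and GCGNGGGCG in 3 (Fosb, Fosl2 and Nr4a1), against 4.70%. The 8 windows held 47.6% (Jund) to 74.4% (Nr4a1) G or C, beside a median of 52.4% over all promoters, and only Jund was below it. Both motifs contain CG, and the shares were not matched for this content. TATAAA occurs in 12.4% of all. The full cAMP response element TGACGTCA (1.55% of all), the AP-1 site TGACTCA (4.46%), the NR4A site AAAGGTCA (1.34%) and the CArG box of serum response factor (1.47%) were searched on both strands and are not in these windows. Matches are letters only, and starts differ between annotations: GENCODE extends Atf3, Nr4a1 and Fosl2 further upstream than the RefSeq windows used, and it starts Jund at 70698949 on chromosome 8, downstream of a RefSeq window that ends at 70697738.

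In position (mm10), Fos lies on chromosome 12 at 85473890 to 85477273, Jun on chromosome 4 at 95049034 to 95052222, Atf3 on chromosome 1 at 191170296 to 191218039 and Nr4a1 on chromosome 15 at 101254269 to 101274795. Fosl1, on chromosome 19 at 5447547 to 5455946, overlaps Ccdc85b on the opposite strand, which stood at 19.4, 21.7 and 27.8 FPKM in wild type and at 21.9, 20.8 and 17.8 in the knockout. Junb, on chromosome 8 at 84974484 to 84978718, overlaps Prdx2 on the opposite strand, whose wild type values were 41.5, 44.9 and 44.3 FPKM and whose knockout values were 41.8, 45.6 and 48.0. In knockout library 3, where Fosl1 and Junb stood at 0.899 and 11.6 FPKM, Ccdc85b was also at its lowest and Prdx2 was at its highest. Jun, Jund and Atf3 overlap the non-coding genes Junos, Gm11175 and Gm24748. The sources used here do not state whether counting used the strand, so reads of overlapping genes may be mixed.

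Other genes of the pathway were counted in 7 lists of 129 genes in all, and 0 passed in limma over all genes, with all libraries or without knockout library 3. At an unadjusted p under 0.05 there were 9 (6.98%) with all libraries and 23 (17.8%) without that library, beside the 8.08% and 7.16% of all genes. Beside the list counts below, 47.9% of all genes were higher with all libraries and 46.4% without knockout library 3, with a median of -0.01 in both. Of all genes, 30.3% were lowest in knockout library 3. Among 25 other immediate early genes, 5 were higher and 20 lower in the knockout (median -0.22), against 16 higher and 9 lower without knockout library 3 (median 0.06), and 19 were lowest in that library. In knockout libraries 1 and 2, 7 of the 25, or 28.0%, were higher than every wild type library, where 11.2% of all genes were: Klf6, Btg2, Myc, Sik1, Cyr61, Csrnp1 and Mcl1. Lower than every wild type library there were 2 of the 25, Btg1 and Ier5, where 12.7% of all genes were. Of the lists below, feedback inhibitors had 4 higher and 0 lower in this way of 16, and other bZIP factors 4 and 1 of 22. The kinases had 2 and 4 of 22, and the list of serum response factor, MEF2 and related factors 0 and 1 of 10. AP-1 targets had 2 and 4 of 21, and injury genes 0 and 3 of 13. Btg2, an antiproliferative gene, stood at 23.8, 25.1 and 28.9 FPKM in wild type and at 37.2, 38.3 and 12.2 in the knockout. Myc, a growth-promoting factor, stood at 10.4, 10.8 and 11.4 and then 13.5, 12.8 and 3.21. Both repeat the order seen for Fos, Atf3 and Egr1, and both were picked once their values were known. By the naming rule, Ier5 averaged 14.1 ± 1.23 FPKM in wild type and 10.1 ± 2.25 in the knockout (SD, n = 3 each), the kinase gene Sik1 18.5 ± 1.11 and 21.8 ± 2.94, Btg1 28.8 ± 3.76 and 24.9 ± 2.01, and Ier3 47.5 ± 6.12 and 41.0 ± 4.07.

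Feedback inhibitors of the pathway, among them phosphatases of MAP kinases and the RNA-decay factors of the Zfp36 family, were lowest in knockout library 3 in 14 of 16 cases, all but Nab1 and Dusp1. Of the 16, 5 were higher and 11 lower with all libraries (median -0.10), and 10 were higher and 6 lower without that library (median 0.07). Without overlap, 4 of 16, or 25.0%, were higher in knockout libraries 1 and 2, namely Zfp36l1, Dusp16, Dusp8 and Zfp36, where 11.2% of all genes were. Dusp10 averaged 1.79 ± 0.781 FPKM in wild type and 1.01 ± 0.252 in the knockout, Dusp4 13.4 ± 1.15 and 9.68 ± 3.78, Nab2, a corepressor of EGR proteins, 9.04 ± 1.13 and 7.85 ± 0.506, and Fbxw7, a ubiquitin ligase subunit that targets Jun, 3.62 ± 0.527 and 2.75 ± 1.18 (SD, n = 3 each). In knockout libraries 1, 2 and 3, Dusp4 stood at 13.3, 9.93 and 5.79 FPKM and Fbxw7 at 2.14, 4.11 and 2.00. The log2 fold change of Dusp4 was -0.49 with all libraries and -0.20 without knockout library 3.

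Other bZIP factors, the wider class to which AP-1 belongs, were lowest in knockout library 3 in 12 of 22 cases, with 7 higher and 15 lower in the knockout (median -0.10) and 14 higher and 8 lower without that library (median 0.01). Atf5 averaged 27.1 ± 1.70 FPKM in wild type and 20.6 ± 2.15 in the knockout, without overlap (limma adjusted p = 0.592). Ddit3, which encodes the stress factor CHOP, averaged 9.37 ± 1.16 and 11.4 ± 1.93, Atf1 14.8 ± 1.14 and 12.4 ± 2.68, and Maf 28.8 ± 3.28 and 35.9 ± 10.01 (SD, n = 3 each). Atf1 (14.1 and 13.8 FPKM) and Maf (30.2 and 29.9) lay inside the wild type range in knockout libraries 1 and 2. Only knockout library 3, at 9.32 and 47.4 FPKM, lay outside it.

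The upstream kinases and their nuclear targets were nearer to the share of all genes in knockout library 3, a contrast that was not tested. Of 22 genes of the MAP kinase cascade, 11 were lowest there, and 6 were higher and 16 lower in the knockout (median -0.07), against 9 higher and 13 lower without that library (median -0.05). Map3k7, which encodes the kinase TAK1 downstream of cytokine receptors, stood at 7.48, 13.2 and 13.8 FPKM in wild type and at 5.84, 5.92 and 5.96 in the knockout. Every knockout library was below every wild type library, and the difference did not pass (limma adjusted p = 0.592). Rps6ka3, which encodes the ribosomal S6 kinase RSK2, stood at 17.2, 18.3 and 20.5 FPKM and at 9.83, 9.39 and 16.2, and its limma adjusted p was 0.592, and 0.0922 without knockout library 3. Rps6ka4 averaged 16.8 ± 2.03 and 11.3 ± 1.90 FPKM, and Map2k2 30.3 ± 1.26 and 26.5 ± 2.13 (SD, n = 3 each). A further list was drawn from serum response factor, its ternary complex partners and cofactors, MEF2 factors and CRTC coactivators. Of its 10 genes, 3 were lowest in knockout library 3, a share of 30.0% beside 30.3% of all genes. In this list 3 were higher and 7 lower (median -0.08), and 5 were higher and 5 lower without knockout library 3 (median -0.0072). Its named genes were Mef2d at 15.7 ± 2.08 and 12.5 ± 2.50 FPKM, Elk3 at 10.4 ± 2.59 and 8.14 ± 0.860, Elk4 at 8.99 ± 0.941 and 7.96 ± 0.0981, and Mkl2 at 5.99 ± 0.654 and 5.38 ± 0.364.

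Genes known as AP-1 targets were lower in the knockout in 19 of 21 cases and higher in 2 (47.9% of all genes were higher). The median of their log2 fold changes was -0.53, against -0.01 over all genes. Of the 21, 16 were lowest in knockout library 3, where 30.3% of all genes were. Without that library 16 were lower and 5 higher (46.4% of all genes were higher), with a median of -0.21. Vim, an intermediate filament gene of mesenchymal and dedifferentiated cells, stood at 24.7, 32.1 and 49.1 FPKM in wild type and at 20.0, 24.2 and 18.0 in the knockout, without overlap (limma adjusted p = 0.592). Mt1, a metallothionein, averaged 506 ± 89.3 and 300.5 ± 145 FPKM, and the matrix metalloproteinases Mmp3 and Mmp9 averaged 3.18 ± 0.980 and 1.88 ± 0.608, and 2.13 ± 0.813 and 1.02 ± 0.646 (SD, n = 3 each). In knockout libraries 1 and 2, 2 of the 21, Hbegf and Lif, were higher without overlap (9.52%, beside 11.2% of all genes). Mmp9, Vim, Mt1 and Mmp3, 4 of the 21, were lower without overlap there, where 12.7% of all genes were. Hbegf, a growth factor, was at 30.2 and 29.4 FPKM in those libraries, above the 19.9, 21.1 and 26.8 of wild type. Among the 13 injury genes, 11 were lower and 2 higher in the knockout (median -0.58), against 10 lower and 3 higher without knockout library 3 (median -0.17), with Anxa3 at 52.4 ± 1.74 and 26.3 ± 14.5 FPKM, Cdkn1a at 38.2 ± 4.83 and 24.3 ± 12.3, Anxa2 at 117 ± 24.9 and 81.1 ± 28.1 and Havcr1 at 833 ± 62.6 and 385 ± 228. Cdkn1a stood at 27.7, 34.6 and 10.6 FPKM in knockout libraries 1, 2 and 3. Its log2 fold change was -0.77 with all libraries and -0.29 without knockout library 3.

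**Figure D5:**
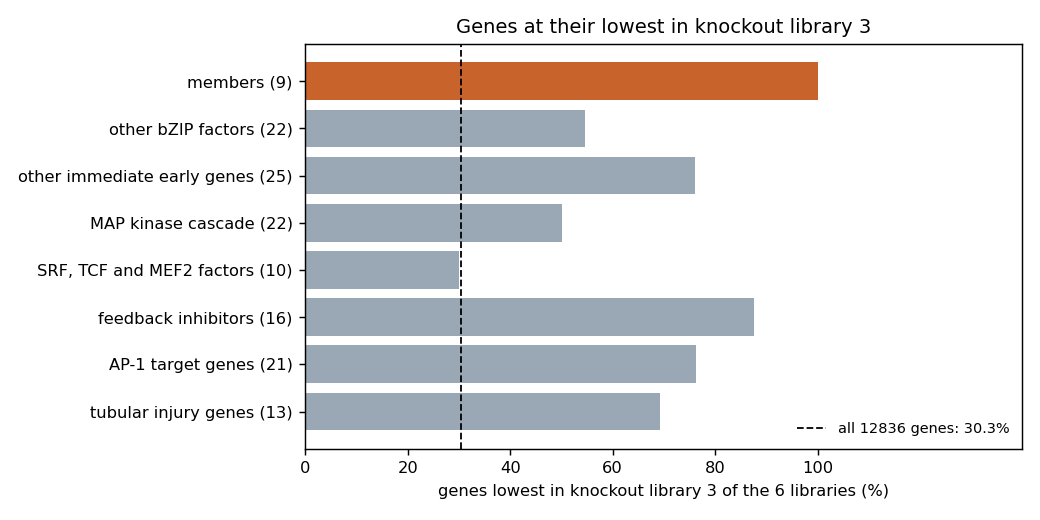
Share of genes (horizontal axis, %) that have their lowest value of the 6 libraries in knockout library 3, for the 9 AP-1 and immediate early genes (orange) and for 7 lists (grey, number of genes in brackets), with the 30.3% of all 12836 genes as a dashed line. The 9 genes are at 100%, feedback inhibitors at 87.5% and the list of serum response factor, MEF2 and related factors at 30.0%.

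Ratios between the 9 genes do not depend on a scaling factor of the library. Of the 36 pairs, 9 (25.0%) had ratios that did not overlap between genotypes, where 16.3% of all pairs of genes above 0 in every library did, and pairs share genes, so these are not separate results. Fosl1 took part in 5 of the 9, being lower in the knockout relative to Fos, Fosl2, Jun, Atf3 and Egr1. Fosl1 over Atf3 was 1.38, 1.21 and 1.59 in wild type libraries and 0.506, 0.738 and 0.338 in knockout libraries. Fosl1 over Egr1 was 0.944, 1.16 and 1.16 and then 0.373, 0.629 and 0.305. In both ratios knockout library 3 was the lowest, and libraries 1 and 2 were also below every wild type library. Fos over Jun was 0.0754, 0.0853 and 0.0850 in wild type and 0.0946, 0.112 and 0.114 in the knockout. Nr4a1 took part in 3 of the 9 pairs, with Fos, Fosl2 and Jund each higher relative to it in the knockout.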

How the data were processed

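RNA of whole kidney was measured in 6 libraries, 3 wild type and 3 LIGHT knockout, grouped and numbered by their titles. Per the labels' protocols, the stranded KAPA kit was used on total RNA. The deposited values are FPKM made by the authors, and the submitters' processing notes list FastQC, HISAT2, StringTie and mm10. Versions, annotation and strand setting are not stated there. Each library's own file equalled the table of all libraries (6 of 6). In every row the higher group mean was at least 0.50043 FPKM. FPKM hold no counts, so the depth is unknown and no counting error was computed.

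The 12836 of 13026 genes averaging 0.5 FPKM or more were tested. Values on the scale log2(FPKM + 1), which understates changes of low genes, were compared in limma 3.58.1 under R 4.3.3 with a mean-variance trend, two-sided, with Benjamini-Hochberg adjustment and a threshold of 0.05. The fit was tested on simulated data. Means, SD and ratios are of FPKM. All members were named, with up to 4 genes a list by smallest p and a mean of at least 1 FPKM, and genes named for not overlapping in knockout libraries 1 and 2 were picked with their values known. The members and lists were chosen with earlier results of these data known. Positions are from GENCODE M21, and the TGACG and TGACATCA motifs were added to the search after the other motifs were set. Alternatives were other pseudocounts, filters, scalings and variance models, library weights, a replicate block and each library left out.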

Additional observations from a re-analysis of the deposited data

How the results depend on the processing

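No member passed in limma under any of the 17 alternatives tried. The count of all genes called, 15 with all libraries, was 52 with library weights, 0 with the replicate number as a block (884 genes at an unadjusted p under 0.05) and between 0 and 11 when 1 library was left out (563 to 1650 at an unadjusted p under 0.05). It was 0 without wild type library 1, wild type library 3 or knockout library 2, 6 without wild type library 2, 7 without knockout library 1 and 11 without knockout library 3. Replicate numbers did not pair the libraries: same-numbered libraries had correlations of 0.15, -0.13 and -0.02 in their deviations from the group means, and the block changed no member's side of the threshold. The median of the 9 members lay between -0.46 and 0.19 when 1 library was left out.

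Directions of 7 members changed when 1 library was left out. With 1 library left out the log2 fold change ran from -0.17 to 0.42 for Fos, -0.40 to 0.59 for Atf3, -0.46 to 0.58 for Egr1, -0.36 to 0.15 for Fosl2, -0.59 to 0.19 for Jun, -0.65 to 0.19 for Junb and -0.39 to 0.049 for Jund. The highest value in each case was the one without knockout library 3. Fos was at -0.01 without wild type library 2, and Atf3 and Egr1 at 0.08 and 0.05 without wild type library 3. Library weights gave 0.20 for Fosl2, 0.20 for Jun, 0.19 for Junb, 0.59 for Atf3 and 0.58 for Egr1, and the weights behind this change were not examined. Fosl1 and Nr4a1 kept a negative sign in every alternative. The Fos share of its family differed by 7.02 percentage points, and by 6.45 to 7.70 with 1 library left out, while the Fosl1 share differed by -20.0 (-25.9 to -12.9) and the Fosl2 share by 13.0 (6.46 to 18.2). That check was chosen after seeing the data. Depth is unknown, so its limit on genes near the floor of the table, such as Fosl1 in knockout library 3, cannot be given.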
